A study of Mus musculus with 13 samples.

Results

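The genes described here are 10 markers of the integrated stress response and of endoplasmic reticulum (ER) stress in parametrial white adipose tissue (pmWAT) of mice: *Atf4*, *Atf5*, *Atf3*, *Ddit3*, *Trib3*, *Asns*, *Chac1*, *Xbp1*, *Hspa5* and *Herpud1*. They were chosen by name as known markers of these pathways, with earlier results of these data known. All 10 were among the 33618 genes counted and among the 16753 genes tested. Whole pmWAT was taken from 13 female mice, 1 library per mouse. The 7 mice of the *Lmna* fl/fl group carried floxed *Lmna* and no Cre. The 6 mice of the *Lmna* iADKO group also carried *Adipoq*-CreERT2, a tamoxifen-activated Cre driven by the adiponectin promoter, which is active in adipocytes and leaves the other cells of the tissue unrecombined. All mice, controls included, received tamoxifen at 50 mg/kg on 5 consecutive days at 12 to 14 weeks of age, and tissue was collected 2 weeks posttamoxifen. The comparison asks how stress genes stood in fat from which adipocyte lamin A/C was to be removed.

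Between 18854223 and 19776491 reads were counted per library, and values below are CPM, the counts scaled to a common library size after TMM normalization. The targeted gene, *Lmna* (ENSMUSG00000028063, chr3:88387454-88417299, GRCm39), averaged 84.7 CPM (SD 7.51, n = 7) under the fl/fl label and 96.8 CPM (SD 11.5, n = 6) under the iADKO label, and the log2 difference of 0.19 had an edgeR adjusted p of 0.0785. The counts cover the whole gene and not the floxed exons alone, so they do not check the labels, and every direction below rests on the labels. Adipocyte markers were abundant in all libraries. Of 11 such markers, 10 fell in the iADKO libraries, and their summed level was 19900 to 31200 CPM in fl/fl and 12500 to 21600 CPM in iADKO. Of 10 macrophage markers, 7 were higher, and their sum was 1850 to 5380 CPM in fl/fl and 3160 to 5450 CPM in iADKO. At an edgeR adjusted p under 0.05, 14.1% of all genes tested were higher and 16.3% lower. In RNA from whole tissue, fewer cells of a type and less RNA per cell cannot be told apart.

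The integrated stress response starts when kinases that sense amino acid lack, ER stress, heme lack or double-stranded RNA phosphorylate the initiation factor eIF2. Most translation then slows, while the mRNA of the transcription factor ATF4 is translated more, so the level of *Atf4* mRNA is only part of the readout. ATF4 and its partners induce further transcription factors, amino acid enzymes and feedback regulators. The unfolded protein response of the ER runs through PERK, which is one of the eIF2 kinases, through IRE1, which splices *Xbp1* mRNA, and through ATF6, and it raises chaperones such as BiP, the product of *Hspa5*. Adipocytes secrete much protein and enlarge with lipid, and both pathways have been studied in fat for that reason. Counts per gene do not separate spliced from unspliced *Xbp1*.

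These pathways act on short promoter elements, and the matches found at the members are shown because the factors of the 2 pathways are known to bind such letters. Promoter sequence was taken from RefSeq (250 bases before to 50 after each start, table on GRCm38.p6) and placed on GRCm39 by exact match. Searched on both strands were the C/EBP-ATF element TGATGNAA, the ER stress element (CCAAT, 9 bases, CCACG), ER stress element II (ATTGG, 1 base, CCACG), the unfolded protein response element core TGACGTGG and the cAMP response element TGACGTCA. The C/EBP-ATF element was present in 5 of the 10 members and in 3.97% of all 32851 promoters. Each window of 30 bases reads 5′ to 3′ along the gene's own strand, with the matched letters in capitals. Where the element lies on the opposite strand, the capitals are its reverse complement. The exon label refers to the whole window and not to the capitals alone. For ER stress element II of *Herpud1*, the capitals lie before the gene start at chr8:95113022, and only bases after them reach the exon.
*Atf3*, C/EBP-ATF, chr1:190915622-190915651, minus strand, outside annotated exons: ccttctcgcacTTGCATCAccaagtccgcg
*Chac1*, C/EBP-ATF, chr2:119181519-119181548, plus strand, overlapping an annotated exon: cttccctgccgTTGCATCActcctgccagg
*Trib3*, C/EBP-ATF, chr2:152185948-152185977, minus strand, overlapping an annotated exon: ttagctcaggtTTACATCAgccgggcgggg
*Asns*, C/EBP-ATF, chr6:7693214-7693243, minus strand, overlapping an annotated exon: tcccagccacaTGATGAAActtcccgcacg
*Herpud1*, C/EBP-ATF, chr8:95112934-95112963, plus strand, outside annotated exons: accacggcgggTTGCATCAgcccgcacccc
*Herpud1*, ER stress element II, chr8:95112996-95113025, plus strand, overlapping an annotated exon: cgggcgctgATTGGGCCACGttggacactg
*Hspa5*, ER stress element, chr2:34662032-34662061, plus strand, overlapping an annotated exon: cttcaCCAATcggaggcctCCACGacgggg
The ER stress element stood in 0.119% of all promoters and ER stress element II in 0.0365%. The core TGACGTGG, in 0.676% of promoters, and TGACGTCA, in 1.79%, had no match in any member. *Atf4*, *Atf5*, *Ddit3* and *Xbp1* held none of these letters in the window searched. A match is a description of sequence and not a shown binding site.

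The members did not change in 1 direction. By edgeR's quasi-likelihood test with Benjamini-Hochberg adjustment over all genes tested, *Atf3* and *Ddit3* were higher in the libraries labelled iADKO, *Atf5*, *Asns* and *Chac1* were lower, and *Atf4*, *Trib3*, *Xbp1*, *Hspa5* and *Herpud1* did not pass the threshold of 0.05. Over all genes tested, 14.1% were higher and 16.3% lower by the same rule, so that 2 of 10 and 3 of 10 are close to the background of this comparison. All iADKO values lay above all fl/fl values for 1 member and below them for 1 member, against 2.71% and 3.93% of all genes tested. The median log2 fold change of the 10 members was 0.053, and that of all genes tested was 0.033. Exact two-sided permutation tests of log2 CPM over the 13 libraries are given beside the fits, and the smallest p they can give is 0.000583.

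**Figure D1:**
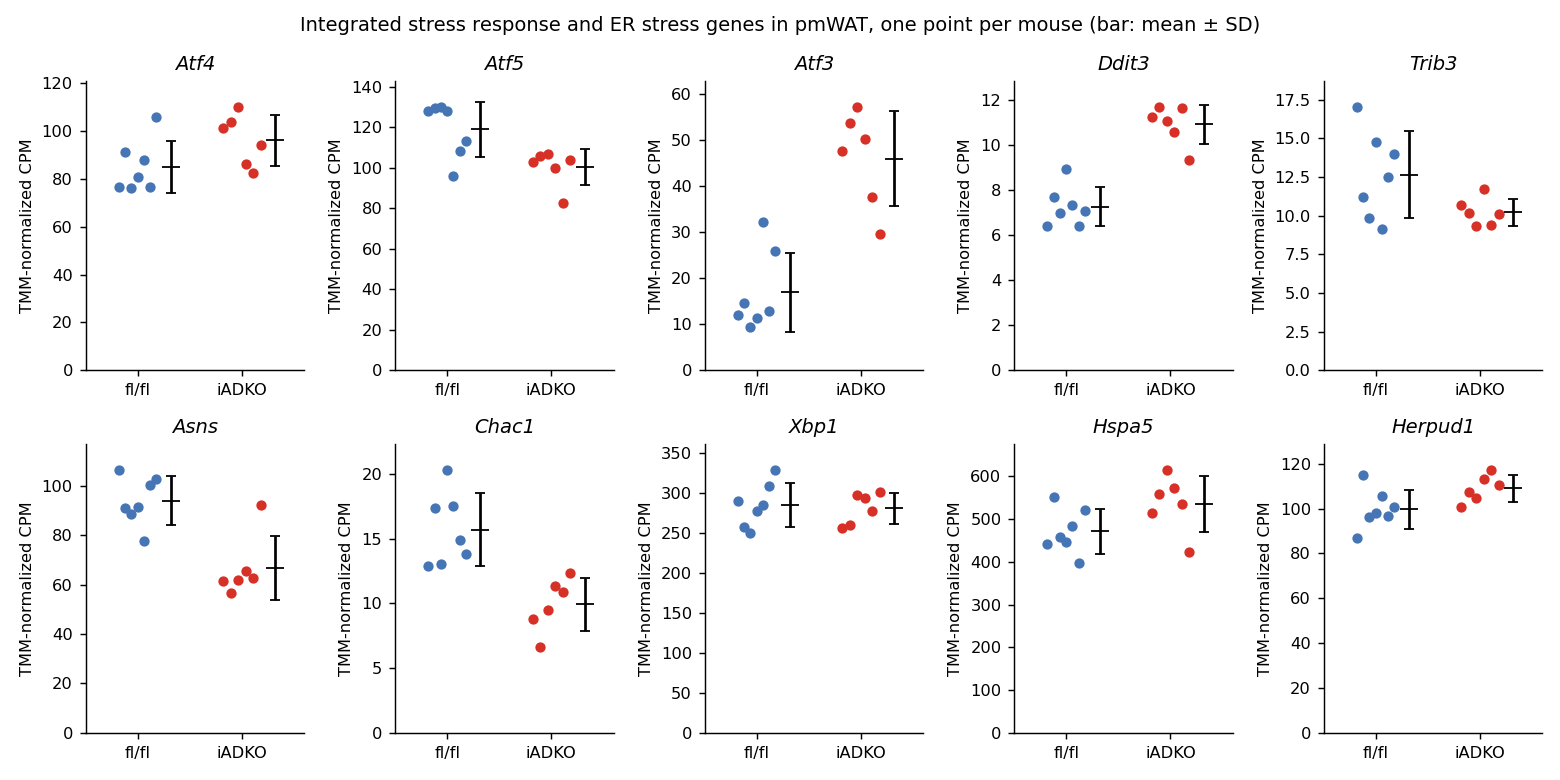
TMM-normalized CPM of the 10 stress genes, 1 point per mouse, with the mean ± SD of 7 fl/fl (blue) and 6 iADKO (red) libraries beside the points and every axis starting at 0. *Ddit3* in iADKO stands above and *Chac1* below all fl/fl points, 1 iADKO point of *Asns* at 92.2 CPM lies among the fl/fl points, and *Xbp1* spans 256 to 302 CPM in iADKO within the fl/fl span of 250 to 329 CPM.

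Among the transcription factors, *Atf4* (ENSMUSG00000042406, chr15:80139372-80141745, plus strand, 3 exons in the canonical transcript) encodes the factor whose translation the pathway controls. It was at 76.5, 91.3, 76.4, 80.6, 87.9, 76.4 and 105.9 CPM in fl/fl replicates 1 to 7 and at 101.2, 103.8, 109.9, 86.2, 82.3 and 94.0 CPM in iADKO replicates 1 to 6. The groups overlapped, with fl/fl replicate 7 above 5 of the 6 iADKO libraries and only iADKO replicate 3 above all fl/fl libraries. The fl/fl mean was 85.0 ± 10.99 CPM (SD, n = 7), the iADKO mean 96.2 ± 10.7 CPM (SD, n = 6), and the log2 fold change 0.18 ± 0.089 (SE) with an edgeR adjusted p of 0.14. Without fl/fl replicate 7 the log2 fold change was 0.24 and the adjusted p 0.0325.

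*Atf5* (ENSMUSG00000038539, chr7:44461680-44466082, minus strand) encodes a related factor, also under translational control, that is known for the mitochondrial stress response. Its level was 95.7 to 129.8 CPM in fl/fl with a median of 127.9 and 82.6 to 106.9 CPM in iADKO with a median of 103.2. In fl/fl, replicates 1 to 4 lay between 127.9 and 129.8 CPM and replicates 5 to 7 between 95.7 and 113 CPM, within or near the iADKO span. The log2 fold change was -0.25 ± 0.082 (SE, adjusted p = 0.0354, exact permutation p = 0.0221). This call was the least stable of the members: it was lost in 7 of the 13 fits that left out 1 library, those without fl/fl replicates 1, 2, 3 or 4 or iADKO replicates 1, 4 or 5, where adjusted p was 0.0564 to 0.0815.

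*Atf3* (ENSMUSG00000026628, chr1:190902493-190950241, minus strand) encodes a factor induced by ATF4 and also, within minutes to hours, by growth signals, cytokines and wounding. It was at 12.1, 14.6, 9.42, 11.4, 32.04, 12.9 and 25.8 CPM in fl/fl replicates 1 to 7 and at 47.5, 53.6, 57.0, 50.1, 37.6 and 29.6 CPM in iADKO replicates 1 to 6. In fl/fl, 5 of the 7 libraries lay under 15 CPM with replicates 5 and 7 well above them, and 5 of the 6 iADKO libraries exceeded every fl/fl library, replicate 6 being the exception. *Atf3* was 2.72-fold higher in iADKO, a log2 fold change of 1.44 ± 0.285 (SE, adjusted p = 0.00316, exact permutation p = 0.00291). This was the largest change of the 10 members in either direction. The log2 fold change stayed between 1.34 and 1.68 when any 1 library was left out.

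*Ddit3* (ENSMUSG00000025408, chr10:127124268-127132163, plus strand) encodes CHOP, a factor induced by ATF4 and linked to cell death under lasting ER stress. It was at 6.38, 7.68, 6.99, 8.91, 7.34, 6.40 and 7.06 CPM in fl/fl replicates 1 to 7 and at 11.2, 11.7, 11.1, 10.6, 11.6 and 9.33 CPM in iADKO replicates 1 to 6. Every iADKO library was above every fl/fl library, although the nearest values, 8.91 and 9.33 CPM, were close. The rise was 1.5-fold, with a log2 fold change of 0.59 ± 0.089 (SE, adjusted p = 0.000585, exact permutation p = 0.00117). These values rest on 111 to 250 counts per library. Of the 3 transcription factor genes past the threshold, *Ddit3* had the smallest spread in the fold change when 1 library was left out, from 0.56 to 0.64 on the log2 scale in 13 fits.

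Among the effectors and feedback genes, *Chac1* and *Asns* were lower and *Trib3* did not pass the threshold. *Chac1* (ENSMUSG00000027313, chr2:119180757-119184866, plus strand) encodes an enzyme that degrades glutathione and is a target of ATF4 and ATF3. It was at 12.9, 17.4, 13.1, 20.3, 17.6, 14.9 and 13.8 CPM in fl/fl replicates 1 to 7 and at 8.76, 6.62, 9.53, 11.4, 10.9 and 12.4 CPM in iADKO replicates 1 to 6. The groups did not overlap, and the nearest values were 12.9 and 12.4 CPM. *Chac1* was 1.58-fold lower in iADKO, a log2 fold change of -0.66 ± 0.146 (SE, adjusted p = 0.00453, exact permutation p = 0.000583).

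*Asns* (ENSMUSG00000029752, chr6:7671667-7728461, minus strand) encodes asparagine synthetase, a classical ATF4 target in amino acid lack. It was at 106.4, 91.2, 88.6, 91.5, 77.5, 100.5 and 102.6 CPM in fl/fl replicates 1 to 7 and at 61.6, 56.6, 61.7, 65.7, 62.8 and 92.2 CPM in iADKO replicates 1 to 6. In iADKO, 5 of 6 libraries were below every fl/fl library, and replicate 6 lay among the fl/fl values. The fall was 1.41-fold, a log2 fold change of -0.49 ± 0.106 (SE, adjusted p = 0.00397, exact permutation p = 0.00524). Without iADKO replicate 6 the log2 fold change was -0.61.

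*Trib3* (ENSMUSG00000032715, chr2:152179337-152191958, minus strand) encodes a pseudokinase that ATF4 and CHOP induce and that restrains ATF4 in turn. Its level was 9.16 to 17.0 CPM in fl/fl with a median of 12.5, and 9.34 to 11.7 CPM in iADKO with a median of 10.1. All iADKO libraries lay inside the fl/fl span, which was much the wider. The log2 fold change was -0.31 ± 0.132 (SE, adjusted p = 0.0916), and it was -0.37 with an adjusted p of 0.0248 without fl/fl replicate 5, the lowest fl/fl library.

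None of the 3 ER members, *Xbp1*, *Hspa5* and *Herpud1*, passed the threshold. *Xbp1* (ENSMUSG00000020484, chr11:5470606-5483027, plus strand), the factor made active by IRE1, averaged 285 CPM (SD 27.5, n = 7) in fl/fl against 281 CPM (SD 19.5, n = 6) in iADKO, and the log2 fold change of -0.02 ± 0.071 (SE, adjusted p = 0.839) was smaller than its error. All 6 iADKO values, 256 to 302 CPM, fell inside the fl/fl span. *Hspa5* (ENSMUSG00000026864, chr2:34661982-34668880, plus strand), which encodes BiP, the main ER chaperone of the HSP70 kind, was at 441, 551, 457, 445, 484, 398 and 521 CPM in fl/fl replicates 1 to 7 and at 513, 559, 614, 572, 535 and 422 CPM in iADKO replicates 1 to 6. Of the iADKO libraries, 3 were above all fl/fl libraries and replicate 6 was below 6 of the 7.

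The log2 fold change of *Hspa5* was 0.19 ± 0.093 (SE, adjusted p = 0.143), and without iADKO replicate 6 it was 0.25 with an adjusted p of 0.0353. *Herpud1* (ENSMUSG00000031770, chr8:95113022-95123141, plus strand), which encodes an ER membrane protein of the degradation machinery, was at 86.7 to 114.8 CPM in fl/fl with a median of 98.2 and at 100.8 to 117 CPM in iADKO with a median of 109. The groups overlapped over most of the iADKO span, and 1 iADKO library was above all fl/fl libraries. The log2 fold change was 0.13 ± 0.060 (SE, adjusted p = 0.125), and without fl/fl replicate 2 it was 0.16 with an adjusted p of 0.0425. For *Atf4*, *Hspa5* and *Herpud1* alike, a small difference was thus past or short of the threshold depending on 1 library.

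**Figure D2:**
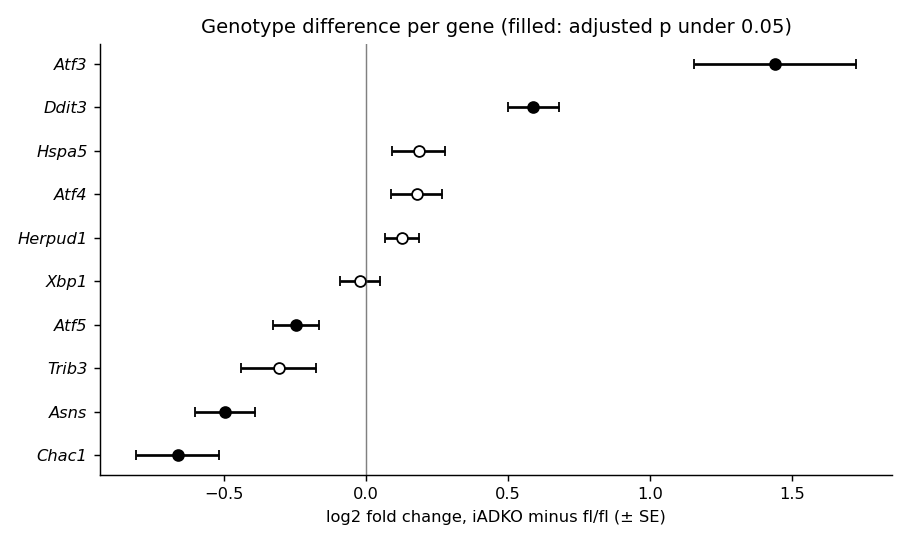
Log2 fold change of each stress gene, iADKO minus fl/fl, with the standard error from edgeR's quasi-likelihood fit as bars and filled points where the adjusted p was under 0.05. The genes run from *Chac1* at -0.66 to *Atf3* at 1.44, and the 3 ER members lie between -0.02 and 0.19 with open points.

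The library names carry numbers that fall into 4 runs, which the labels do not describe. One run held 2 fl/fl and 2 iADKO libraries and another 3 fl/fl and 2 iADKO libraries, while the remaining runs held 1 genotype each. Within these runs, the difference of mean log2 CPM was 1.01 and 2.08 for *Atf3*, 0.29 and 0.70 for *Ddit3*, -0.67 and -0.90 for *Chac1* and -0.11 and -0.69 for *Asns*. The sign in both runs was that of the whole comparison for all members but *Xbp1*, at 0.08 and -0.04. With the run as a block, *Asns* (log2 fold change -0.42, adjusted p = 0.0641) and *Atf5* (-0.23, adjusted p = 0.129) were no longer past the threshold, while 2 members were still called higher and 1 lower.

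Several members followed cell type markers from mouse to mouse. The values given are a selection, and a member could go with more than 1 set of markers. After each group's mean was removed, the log2 CPM of *Atf3* had a Pearson correlation of 0.95 with the mean of the 10 macrophage markers over the 13 libraries, and *Asns* had one of 0.82 with the mean of the 11 adipocyte markers. *Atf3* also had -0.69 with the adipocyte and 0.68 with the plasma cell markers, and *Asns* had -0.59 with the macrophage markers. For *Atf5* the values were 0.64 with the adipocyte, -0.57 with the macrophage and -0.65 with the plasma cell markers. *Ddit3* had weaker values, 0.31 and -0.52 with macrophage and adipocyte markers, and *Chac1* was near 0 with both, at -0.01 and -0.01, but had 0.46 with plasma cell markers and 0.41 with immediate early genes. *Hspa5* had 0.59 with the macrophage and *Herpud1* 0.62 with the plasma cell markers, which include *Derl3*, a gene of ER-associated degradation. These correlations describe 13 libraries that share their normalization, and the part of the markers in the genotype differences was not tested.

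The libraries that stood apart are given here as single values. They are part of the correlations above, so their values are no separate evidence for those. How far the correlations rest on them was not tested. The 2 fl/fl libraries with the highest *Atf3*, replicates 5 and 7, had the highest summed macrophage markers of their group, 5380 and 3670 CPM, against 1850 to 2430 CPM in the other 5. In iADKO, replicate 6 had the lowest *Atf3*, the lowest macrophage sum at 3160 CPM and the highest adipocyte sum at 21600 CPM. Replicates 5 and 7 of fl/fl had more macrophage marker RNA than iADKO replicate 6. Their *Atf3*, 32.04 and 25.8 CPM, lay on either side of its 29.6 CPM, and their *Ddit3*, 7.34 and 7.06 CPM, was below its 9.33 CPM. The macrophage sum of fl/fl replicate 5, 5380 CPM, was also above those of iADKO replicates 1, 2, 3 and 5, 4580 to 4790 CPM. That sum leans on *Lyz2*, which reached 3090 CPM in fl/fl. By the mean log2 CPM of the markers, fl/fl replicate 5 was level with these libraries, at 7.705 against 7.704, 7.743, 7.694 and 7.653. In those iADKO libraries *Atf3* was 37.6 to 57.0 CPM and *Ddit3* 11.1 to 11.7 CPM. For adipocyte markers, fl/fl replicate 5 at 19900 CPM was below iADKO replicate 6, and its *Chac1* at 17.6 CPM was above the 12.4 CPM of iADKO replicate 6, while its *Asns* at 77.5 CPM was below the 92.2 CPM. The libraries compared differed in other markers too. Smooth muscle markers summed to 1780 CPM in iADKO replicate 6 and 459 CPM in fl/fl replicate 5. Skeletal muscle markers summed to 21.4 and 377 CPM in the same libraries. These comparisons rest on a few single libraries, picked with their values in view, and what the cell markers contribute was not tested.

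**Figure D3:**
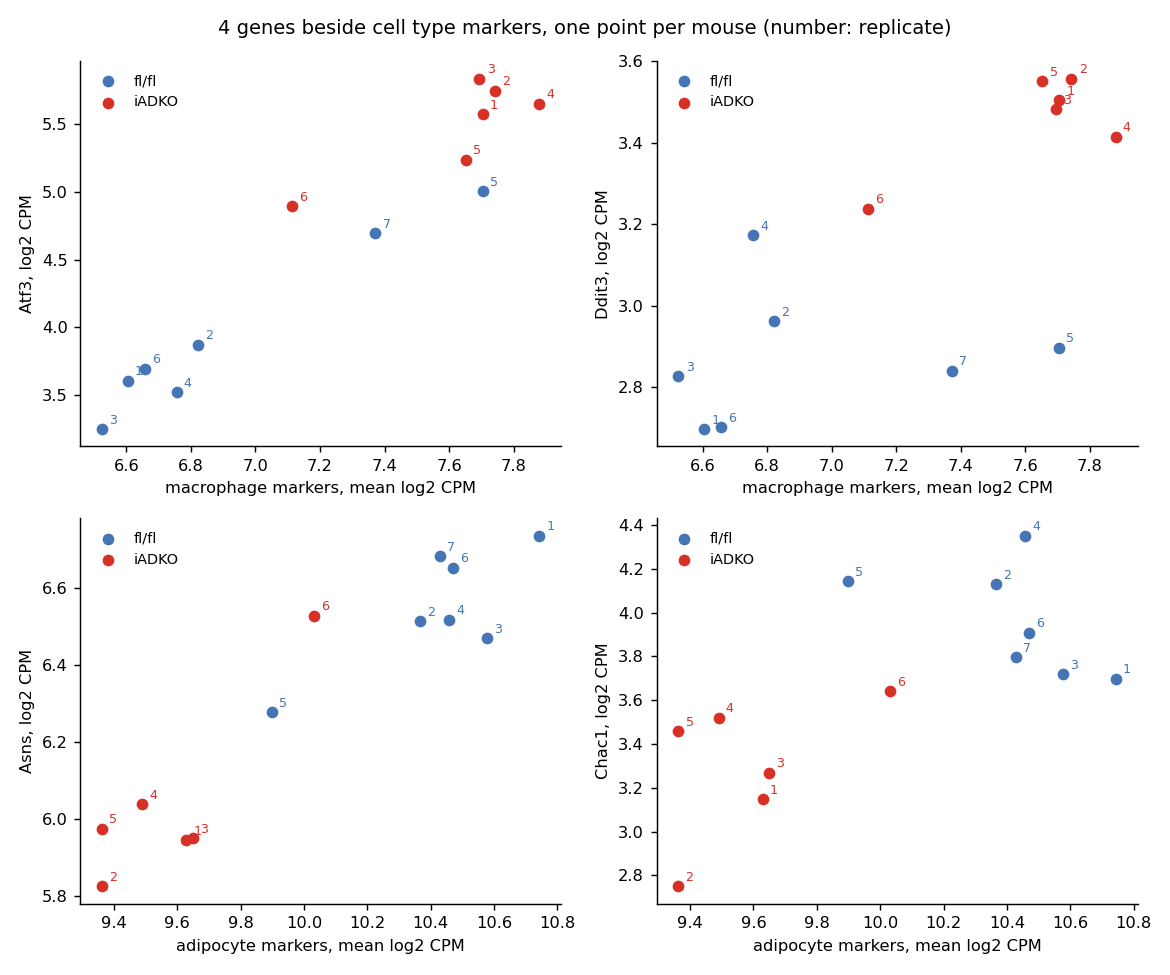
Log2 CPM of *Atf3* and *Ddit3* against the mean log2 CPM of 10 macrophage markers, and of *Asns* and *Chac1* against that of 11 adipocyte markers, 1 point per mouse with its replicate number, fl/fl in blue and iADKO in red. *Atf3* and *Asns* climb with the markers across both groups, and *Ddit3* in fl/fl replicates 5 and 7 lies among the other fl/fl mice. The fl/fl library with the lowest adipocyte markers is replicate 5, where *Chac1* is no lower than in most fl/fl mice.

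Among themselves the members did not vary as 1 block. With group means removed, *Atf4* had a Pearson correlation of 0.66 with *Atf3* and 0.53 with *Hspa5*, and *Atf3* one of 0.58 with *Hspa5*. *Asns* had 0.53 with *Xbp1*, but -0.65 with *Ddit3* and -0.60 with *Hspa5*. *Asns* and *Ddit3* are both targets of ATF4, and they moved in opposite directions both between the groups and between mice of a group, as a description of 13 libraries.

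Upstream of these genes, 19 genes of the eIF2 step were tested. Most encode kinases, subunits or phosphatase subunits, and *Gcn1*, *Impact*, *Dele1*, *Oma1* and *Eif2a* were also listed. The log2 fold changes of the 4 eIF2 kinases lay between -0.17 and 0.11. *Eif2ak1*, the heme sensor, averaged 64.1 CPM (SD 1.92, n = 7) in fl/fl against 57.0 CPM (SD 1.16, n = 6) in iADKO without overlap, and its log2 fold change was -0.17 (edgeR adjusted p = 0.00387). *Eif2ak3*, which encodes PERK, was higher by 0.11 (adjusted p = 0.0484), and *Eif2ak2* and *Eif2ak4*, the sensors of double-stranded RNA and uncharged tRNA, were at 0.02 (adjusted p = 0.815) and 0.04 (adjusted p = 0.555). The third gene past the threshold was *Ppp1r15a*, the inducible phosphatase subunit GADD34 that CHOP and ATF4 raise and that ends the response. It averaged 17.4 CPM (SD 2.88) in fl/fl against 25.6 CPM (SD 2.57) in iADKO, higher by 0.56 ± 0.103 on the log2 scale (SE, adjusted p = 0.00175). In all, 2 of the 19 were higher (10.5%) and 1 lower (5.26%), below the 14.1% and 16.3% of all genes tested. The median log2 fold change was 0.018. The count of 2 fell to 1 in 8 of the 13 fits without 1 library, those without fl/fl replicates 1, 3, 4 or 6 or iADKO replicates 2, 3, 4 or 5. The count of 1 lower became 4 without fl/fl replicate 5 and 2 without fl/fl replicate 2. With the run of library numbers as a block, 1 was higher and 0 lower.

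Of 33 further ATF4 targets tested, mostly of amino acid and one-carbon metabolism, 3 were higher and 10 lower, with a median log2 fold change of 0.069. The largest change was in *Gdf15*, a secreted stress hormone, which averaged 1.25 CPM (SD 0.721, n = 7) in fl/fl against 5.88 CPM (SD 1.79, n = 6) in iADKO without overlap, higher by 2.22 ± 0.313 on the log2 scale (SE, adjusted p = 0.000426). *Mthfd1l*, of mitochondrial one-carbon metabolism, was higher by 0.47 in log2 units (adjusted p = 0.00513). *Slc1a5*, a glutamine transporter, averaged 2493 CPM (SD 328) in fl/fl against 1353 CPM (SD 309) in iADKO and fell by 0.88 on the log2 scale (adjusted p = 0.000723). *Cbs*, of cysteine synthesis, fell by 1.13 log2 units (adjusted p = 0.00087). The shares, 9.09% higher and 30.3% lower, stand beside 14.1% and 16.3% over all genes tested. Without fl/fl replicate 5 the count of higher targets was 6, and it was 5 without fl/fl replicate 4, fl/fl replicate 7 or iADKO replicate 6. With the run of library numbers as a block, 1 target was higher and 4 were lower.

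Of 20 cytosolic aminoacyl-tRNA synthetases, which ATF4 also induces, 1 was higher (*Rars1*, log2 fold change 0.18, adjusted p = 0.0198) and 3 lower, among them *Eprs1* (-0.23, adjusted p = 0.013) and *Mars1* (-0.21, adjusted p = 0.0387). The shares were 5% higher and 15% lower, beside 14.1% and 16.3% over all genes tested. The count of 3 was 1 in 10 of the 13 fits without 1 library and 5 without fl/fl replicate 5. With the run of library numbers as a block, 0 synthetases were higher and 0 lower. The mitochondrial stress response, with which *Atf5* is linked, was represented by 12 mitochondrial chaperones and proteases. Of these, 8 were lower (66.7%) and 0 higher by edgeR, with a median log2 fold change of -0.30. At an unadjusted p under 0.05, and by DESeq2 or limma, 0 were higher as well. *Trap1*, a mitochondrial chaperone of the HSP90 kind, fell by 0.62 on the log2 scale (adjusted p = 0.000748), and *Clpp*, a matrix protease, by 0.45 (adjusted p = 0.00161). This list fell alongside the adipocyte markers, and the part of those markers in it was not tested.

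On the ER side of the pathway, most lists were called at or below the shares over all genes tested, 14.1% higher and 16.3% lower. The exception was ER-associated degradation, with 25.8% lower. Of 13 tested sensors and factors of the unfolded protein response, 1 was higher and 1 lower, 7.69% each, with a median log2 fold change of 0.005. *Ern1*, which encodes IRE1, was at 0.18 (adjusted p = 0.234) and *Atf6* at 0.12 (adjusted p = 0.0529), and the 1 lower gene was *Nfe2l1*, an ER-anchored factor that controls proteasome genes, at -0.47 without overlap (adjusted p = 0.00126). The 1 higher gene is *Eif2ak3*, named above, whose call was lost with DESeq2's size factors (adjusted p = 0.0713), the DESeq2 test (0.0985), limma on the rlog values (0.0855), no filter on low counts (0.275), the replicate block (0.113) and the run block (0.216), and in 9 of the 13 fits without 1 library, those without fl/fl replicates 1, 3, 4 or 6 or iADKO replicates 1 to 5.

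Of 38 ER chaperones and foldases, 3 were higher and 6 lower, 7.89% and 15.8%, with a median of 0.055. *Sdf2l1* (log2 fold change 0.59, adjusted p = 0.0109) and *Creld2* (0.40, adjusted p = 0.0451), both known to be induced by ER stress, were among the 3 higher, and *Creld1* (-0.74, adjusted p = 0.000745) and *Cdnf* (-0.65, adjusted p = 0.0162) had the lowest values. The count of 3 higher became 1 without fl/fl replicate 3, fl/fl replicate 6 or iADKO replicate 4, 7 without fl/fl replicate 5 and 5 without fl/fl replicate 7. With the run block, 0 were higher and 3 lower. Markers of plasma cells, which are rich in ER, also moved: 3 of 8 were higher (37.5%). Their summed level was 497 to 1590 CPM in fl/fl and 910 to 1870 CPM in iADKO. Most of that sum was *Jchain*, at a mean of 821 CPM in fl/fl and 1314 CPM in iADKO, which did not pass (edgeR adjusted p = 0.104). The marker *Derl3* is itself a gene of ER-associated degradation. The part of these markers in the chaperone values was not tested.

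Of 31 genes of ER-associated degradation, in which *Herpud1* acts, 8 were lower (25.8%) and 0 higher by edgeR, with a median of -0.066. Over all genes tested, 16.3% were lower and 14.1% higher. At an unadjusted p under 0.05, 3 were higher, and by DESeq2 or limma 0 were. The lower genes include *Ngly1*, which removes glycans from retrieved proteins (-0.29, adjusted p = 0.00315), and *Nploc4*, a cofactor of the VCP segregase (-0.28, adjusted p = 0.00944). The count of 8 was 5 without fl/fl replicate 1, fl/fl replicate 3, iADKO replicate 2 or iADKO replicate 5, and the count of higher genes was 3 without fl/fl replicate 5 and 1 without fl/fl replicate 3, fl/fl replicate 7 or iADKO replicate 6. With the run of library numbers as a block, the count of 8 was 1. Of 40 genes of ER translocation, glycosylation and export, 4 were higher, such as *Sec11c* (0.32, adjusted p = 0.0134) and *Ostc* (0.31, adjusted p = 0.0292), and 4 lower, such as *Stt3b* (-0.45, adjusted p = 0.00204) and *Lman2* (-0.34, adjusted p = 0.00364), or 10% each way. The count of 4 higher ranged from 1 to 7 without 1 library, being 1 without iADKO replicate 3, 2 without fl/fl replicates 1, 3 or 6 or iADKO replicates 2 or 4, and 7 without fl/fl replicate 7. With the run block, the count of 4 higher was 0.

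Among genes linked to death under ER stress, not all of them targets of CHOP, 5 of 11 were higher (45.5%) and 0 lower by edgeR. Their median was 0.15. Over all genes tested, 14.1% were higher and 16.3% lower. Before adjustment (p under 0.05) and by DESeq2 or limma, 0 were lower as well. *Pmaip1*, which encodes the BH3-only protein NOXA, averaged 3.17 CPM (SD 1.05, n = 7) in fl/fl against 6.07 CPM (SD 0.572, n = 6) in iADKO without overlap, higher by 0.93 ± 0.186 on the log2 scale (SE, adjusted p = 0.00256). *Ppp1r15a*, named above, is also of this list. The count ranged from 4 to 6 when any 1 library was left out. Several of these genes answer to p53 as well as to CHOP, and some are also expressed by immune cells. Besides the macrophage markers above, 4 of 7 T cell markers (summed level 22.6 to 36.6 CPM in fl/fl and 39.9 to 46.6 CPM in iADKO) and 3 of 7 B cell markers (30.3 to 76.5 and 59.7 to 122 CPM) were higher, and their part in these values was not tested.

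*Atf3* is also an immediate early gene, one of the genes that stimuli and tissue handling raise within minutes, and 17 others of that kind were tested. Of these, 8 were higher (47.1%) and 0 lower by edgeR, beside 14.1% and 16.3% of all genes tested. The median log2 fold change was 0.49, and 0 were lower also before adjustment (p under 0.05) and by DESeq2 or limma. *Egr2* rose without overlap by 1.69 ± 0.248 (SE, adjusted p = 0.000579), and *Fos* averaged 10.4 CPM (SD 5.72, n = 7) in fl/fl against 28.9 CPM (SD 18.6, n = 6) in iADKO, with a log2 fold change of 1.47 (adjusted p = 0.0198). Without iADKO replicate 4, 5 were higher. The summed level was 632 to 957 CPM in fl/fl and 952 to 1510 CPM in iADKO, highest in iADKO replicate 6, the iADKO library with the lowest *Atf3*. With group means removed, *Atf3* had a Pearson correlation of 0.36 with the mean of these genes, against 0.95 with the macrophage markers, and the part of the immediate early genes in the *Atf3* difference was not tested.

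Of 13 genes of the cytosolic heat shock response, which serves misfolded protein outside the ER, 1 was higher (7.69%), *Bag3* (log2 fold change 0.22, adjusted p = 0.0373). By edgeR, DESeq2 or limma 0 were lower, with 1 lower at an unadjusted p under 0.05. The count of higher genes ranged from 0 to 5 when 1 library was left out: it was 5 without fl/fl replicate 2, 3 without iADKO replicate 6, 2 without fl/fl replicates 1 or 3, and 0 without fl/fl replicates 4, 6 or 7 or iADKO replicates 1 to 4. Over the 11 lists together, 26 of 243 tested genes were higher and 41 lower, with a median log2 fold change of 0.018. These are 10.7% and 16.9%, beside 14.1% and 16.3% of all genes tested, so the lists as a whole were near the background. The 26 became 17 without fl/fl replicate 6, iADKO replicate 2 or iADKO replicate 3 and 15 without iADKO replicate 4. The median over all genes tested was 0.033.

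**Figure D4:**
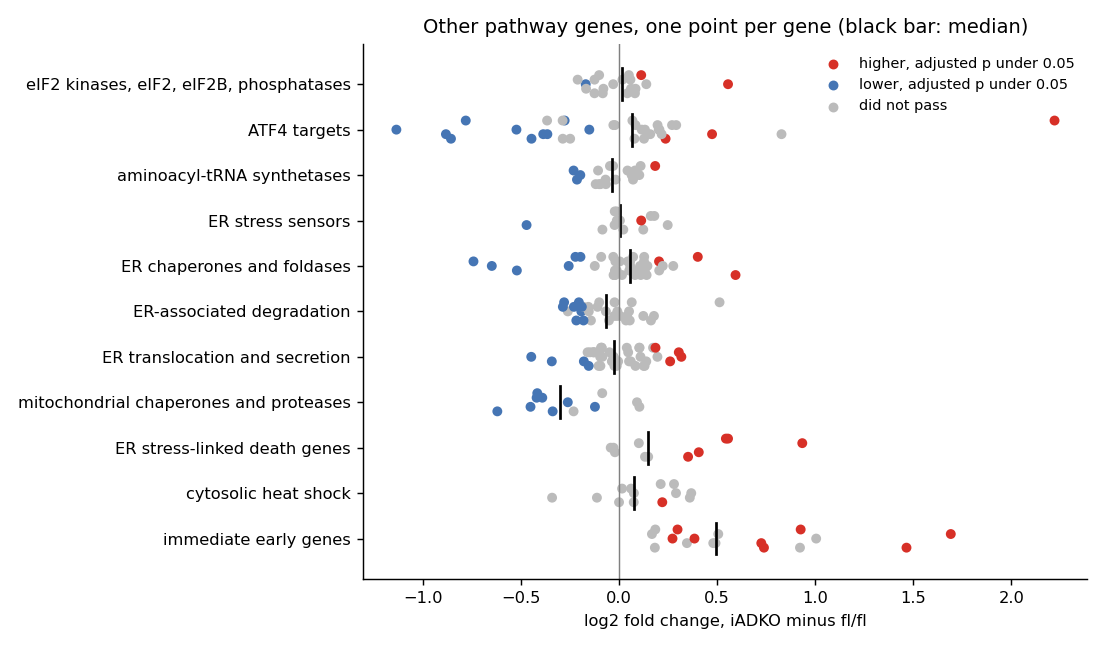
Log2 fold change, iADKO minus fl/fl, of the genes of the 11 further pathway lists, 1 point per tested gene, red or blue where edgeR's adjusted p was under 0.05 in the higher or lower direction and grey otherwise, with the median of each list as a black bar. Medians stay within 0.15 of 0 except for the immediate early genes at 0.49 and the mitochondrial chaperones and proteases at -0.30, and *Gdf15* at 2.22 is the farthest point.

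The promoter matches shown above were set beside the measurements as a description. The 5 members with a C/EBP-ATF element included 1 that rose (*Atf3*), 2 that fell (*Asns* and *Chac1*) and 2 that did not pass (*Trib3* and *Herpud1*). Over all tested genes with this element, 337 in number, 19.3% were higher and 13.6% lower, and over the 11733 tested genes with a promoter in the RefSeq table the shares were 15.4% and 17.4%. *Hspa5*, the 1 member with the ER stress element, did not pass the threshold, nor did *Herpud1*, which held both an ER stress element II and a C/EBP-ATF element.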

How the data were processed

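Strand-specific mRNA libraries of powdered pmWAT were sequenced as paired 100 bp reads. Per the submitters' processing notes, reads were checked with FastQC 0.12.1 and aligned with STAR 2.7.11a to mm39, and DESeq2 was used. The counting tool and annotation are not given in the sources used here. The authors deposited unnormalized gene counts, used for all results, and log2 values (rlog of DESeq2), which served as an alternative. The 33618 identifiers were matched to GENCODE vM39 (33184 with a symbol).

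Genes were filtered with filterByExpr, normalized by TMM and compared by the robust quasi-likelihood test of edgeR 4.0.16 in R 4.3.3, with Benjamini-Hochberg adjustment over 16753 genes and a threshold of 0.05. The standard error of a log2 fold change is its size divided by the square root of the F value. Log2 CPM use a prior count of 2. Counts summed to 18854223 to 19776491 per library, and each SD is the spread between mice with counting error included. No 2 libraries of a group agreed within sampling noise (chi-square per degree of freedom 8.56 to 97.3 over 36 pairs).

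Groups and replicate numbers came from the sample labels, which give 1 date for all libraries. Members and lists were chosen with earlier results of these data known. Named beside the members were, per list, at most 2 genes with the largest rise and 2 with the largest fall at an adjusted p under 0.05 and an average of 1 log2 CPM or more, the eIF2 kinases, *Ern1*, *Atf6*, *Lmna*, and the 3 genes most like *Atf4* and *Hspa5*. Alternatives were DESeq2's size factors, the Wald test of DESeq2 1.42.0, limma 3.58.1 on the rlog values, TMM without mitochondrially encoded genes, no filter or at least 10 counts in every library, the replicate number or the run of library numbers as a block, each library left out, and fl/fl replicate 5 with iADKO replicate 6 left out. A search of protein ends for ER retention signals was not run. Human samples were not used.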

Additional observations from a re-analysis of the deposited data

Results flagged for a closer look

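In 84 groups of values of the genes named, the highest or lowest library was checked against its group, and 7 stood apart by Dixon's criterion; chance flags about 1 in 20 groups. Of the members, *Asns* was at 92.2 CPM in iADKO replicate 6 against 56.6 to 65.7 CPM in the other 5, and *Atf5* was at 82.6 CPM in iADKO replicate 5 against 99.7 to 106.9 CPM.

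In the same iADKO replicate 6, *Slc1a5* was at 1950 CPM against 1127 to 1366 CPM, *Creld1* at 63.6 CPM against 41.6 to 49.4 CPM, *Trap1* at 127.6 CPM against 96.2 to 103.4 CPM and *Fos* at 66.0 CPM against 15.9 to 25.9 CPM. For *Asns*, *Slc1a5*, *Creld1* and *Trap1* this library lay toward or among the fl/fl values, and for *Fos* away from them. It was also the iADKO library with the highest summed adipocyte markers. Smooth muscle markers summed to 1780 CPM in this library and 2370 CPM in iADKO replicate 5. They summed to 601 to 965 CPM in the rest of iADKO and 459 to 988 CPM in fl/fl. In fl/fl replicate 5, the fl/fl library with the highest macrophage and skeletal muscle markers, *Ern1* was at 74.2 CPM against 41.7 to 50.3 CPM in the other 6.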

How the results depend on the processing

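The calls of *Atf3*, *Ddit3* and *Chac1* kept their direction and side of the threshold under all alternatives run, and *Asns* lost its call only with the run of library numbers as a block. That block gave 784 higher and 1202 lower genes in all, 1 member lower, and 7 higher and 15 lower genes over the pathway lists. It spends degrees of freedom on runs of which 2 hold 1 genotype. With no filter on low counts 14 list genes were higher, and without fl/fl replicate 5 and iADKO replicate 6 there were 69 lower, 3 members higher and 4 lower; the cause was not tested. When 1 library was left out, genes higher numbered 1769 to 3319 and lower 2216 to 3285, members higher 2 to 3 and lower 2 to 4, and list genes higher 15 to 38 and lower 31 to 56. The 15 came without iADKO replicate 4, and 17 without fl/fl replicate 6, iADKO replicate 2 or iADKO replicate 3. Signs turned for 4 named genes, none past the threshold. *Xbp1* was at 0.017 with the replicate block and 0.015 with the run block, -0.0653 without fl/fl replicate 5 and iADKO replicate 6, and -0.051 to 0.016 without 1 library (0.016, 0.0078 and 0.0023 without fl/fl replicate 7, iADKO replicate 1 and iADKO replicate 2). *Eif2ak2* was at -0.0015 on the rlog values and -0.017 to 0.047 without 1 library. *Cd209a*, at -0.25 in the main comparison, was at 0.0043 and 0.0095 with the replicate and run blocks and -0.36 to 0.0067 without 1 library. *Hif1a* was at 0.0085 and 0.033 with these blocks and -0.049 to 0.012 without 1 library (0.0099, 0.012 and 0.0004 without fl/fl replicate 7, iADKO replicate 5 and iADKO replicate 6). Replicate numbers were not shown to pair mice: residuals of same-numbered libraries had r of -0.027 to 0.22, and 2 of 6 numbers matched best with themselves. With the replicate block 2379 genes were higher and 2460 lower, 2 members higher and 3 lower, and 36 and 32 list genes.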

Other observations

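Genes whose log2 CPM varied most like *Atf4* and *Hspa5* from mouse to mouse, with group means removed, were sought among 13854 genes over the 13 libraries, as a description. Most like *Atf4* were *Snhg20*, a noncoding RNA host of small nucleolar RNAs (Pearson r = 0.93), *Cd209a*, a lectin of dendritic cells and macrophages (0.92), and *Hif1a*, the hypoxia factor (0.89). Between the groups, *Snhg20* was higher in iADKO by 0.47 ± 0.096 (SE, edgeR adjusted p = 0.00305), while *Cd209a* was at -0.25 (adjusted p = 0.498) and *Hif1a* at -0.02 (adjusted p = 0.831).

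Most like *Hspa5* were *Ppp1cc*, a catalytic subunit of protein phosphatase 1 (r = 0.94), *Yrdc*, an enzyme of tRNA modification (0.92), and *Egfr*, the epidermal growth factor receptor (0.91). Their log2 fold changes were 0.15 (edgeR adjusted p = 0.034), 0.32 (adjusted p = 0.00633) and 0.36 (adjusted p = 0.0431), each past the threshold, which *Hspa5* was not.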
